A study of Mus musculus with 23 samples.

Results

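The HOX clusters were followed here through 104 restriction fragments, out of 173430 fragments in the deposited count table, of which 52313 are shorter than 2000 bp. A member is any fragment under 2000 bp that lies inside the Hoxa, Hoxb, Hoxc or Hoxd cluster of the mouse genome (build mm9). Members were chosen by position alone, and no measured value entered the choice. The Hoxa cluster on chromosome 6 gave 26 members, Hoxb on chromosome 11 gave 25, Hoxc on chromosome 15 gave 17 and Hoxd on chromosome 2 gave 36. Each member is named for its nearest HOX gene with a letter in the order of the chromosome, so Hoxc5-d is the fourth fragment that belongs to Hoxc5. The deposited table also gives a CpG class. It placed 37 members in CpG islands, 31 across an island and its shore (the flank of an island), 25 in shores and 11 in neither.

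HOX genes encode homeodomain transcription factors that set position along the body axis. Their order on the chromosome follows the order of their expression domains, with the low paralog numbers anterior and the high ones posterior. The clusters are rich in CpG islands, which are mostly free of DNA methylation, and in stem cells they are classic targets of Polycomb repression. Muscle precursors keep a record of their position of origin in which HOX genes they express.

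Methylation was read by AIMS-seq. In this assay SmaI first cuts CCCGGG sites that carry no methylation, leaving blunt ends, and XmaI then opens the remaining, methylated sites with overhangs to which adaptors are ligated. A fragment is therefore amplified only if the sites at both of its ends were methylated on the same molecule, and its reads are not a percentage of methylation. The 23 libraries form 9 groups, and no label names a mutation. Embryonic stem (ES) cells are the line CGR8 (129Sv, a library and its technical replicate), RD1 (129X1/SvJ) and E14Tg2 (129/Ola). Primary myoblasts of C57BL/6J mice are cultures 21, 26 and 27 at passages 8 to 10, each sampled in proliferation and as myotubes after 1, 2 and 4 days in differentiation medium. Cultures 26 and 27 were also taken at passage 0. Uncultured C57BL/6J muscle precursors are represented by a single uninjured library and a single library taken 3 days after cardiotoxin (CTX) damage. Whole skeletal muscle gave 3 libraries, of which muscle 1 and muscle 2 are 129Sv/C57BL/6J and muscle 3 is C57BL/6J. Strain and cell type cannot be told apart in any comparison with ES cells, since a sequence difference that removes a CCCGGG site would also remove the fragment. Whole muscle holds several cell types, so methylation in more cells and a different mix of cells cannot be told apart either. The files hold no expression, so the labelled cell types could not be checked against marker transcripts.

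Library totals ran from 6237851 to 14696855 reads. Members took 0.0304% (E14Tg2) to 0.183% (culture 27, day 1) of a library's reads. Values below are CPM, reads of a fragment per 1000000 reads of its library. The first and the second CGR8 library were summed for means and tests, so that ES cells have n = 3 lines. They differed several-fold at some members, so their values are also given apart.

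The sites of 2 stretches, which bound Hoxc5-a, Hoxc5-d and Hoxa2-b, are shown first because much of what follows is about these members, as 30 bases of the mm9 plus strand, 5′ to 3′, with the CCCGGG site in capitals. The Hoxc5 gene holds 5 consecutive sites, which bound the fragments Hoxc5-a to Hoxc5-d.
Site before Hoxc5-a, chr15:102844231-102844260: ccccccccaaccCCCGGGctttgccaacat
Site between Hoxc5-a and Hoxc5-b, chr15:102844700-102844729: tggctgccaaccCCCGGGctcaccccgacc
Site between Hoxc5-b and Hoxc5-c, chr15:102845490-102845519: ggaggcgcttctCCCGGGaccgggcctgcc
Site between Hoxc5-c and Hoxc5-d, chr15:102846085-102846114: gagcaccccaggCCCGGGgcacattcttgt
Site after Hoxc5-d, chr15:102846452-102846481: cccttcccaaagCCCGGGaacttccctagc
The start of Hoxa2, a gene of the minus strand, holds 4 consecutive sites, which bound the fragments Hoxa2-a to Hoxa2-c.
Site before Hoxa2-a, chr6:52113778-52113807: ctgggagcccagCCCGGGgaagcccagtct
Site between Hoxa2-a and Hoxa2-b, chr6:52114447-52114476: cgagggtgactgCCCGGGttcaggctggga
Site between Hoxa2-b and Hoxa2-c, chr6:52115032-52115061: ggatggcaatgcCCCGGGagtgcgtggggg
Site after Hoxa2-c, chr6:52115675-52115704: cttaatgtccagCCCGGGacctgcgcccct

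In these stretches, fragments that share a site differed widely in reads. Over all 23 libraries Hoxc5-a had 16340 reads and Hoxc5-d 39921, while Hoxc5-b and Hoxc5-c between them had 5 and 18. Hoxa2-b had 12635 reads between Hoxa2-a with 5 and Hoxa2-c with 2. The sites at both ends of Hoxa2-b are thus read as methylated together, and almost never together with the next site on either side. At Hoxd9 the 6 fragments in a row had 21699, 45, 0, 0, 329 and 844 reads, high in the promoter, absent in the island over the first exon and low again toward the end of the gene. Hoxa9-b and Hoxa9-c, which also share a site, were both well read, with 3796 and 2972 reads.

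Most members carried next to no reads in any library. Of the 104 members, 32 had 0 reads in all 23 libraries, 51 had 1 to 99 and 21 had 100 or more. A count of 0 over all libraries allows a level of up to 0.0127 CPM, for counting error only. The 21 members with 100 or more reads held 99.8% of the 178562 reads of the clusters, 5 of them in Hoxa, 6 in Hoxb, 5 in Hoxc and 5 in Hoxd. None of the 37 island members was among them, and the 37 together had 67 reads. The other classes contributed 7 of 31 island-and-shore members, 7 of 25 shore members and 7 of 11 members outside islands and shores.

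That count is set beside all fragments of the same class from 200 bp to under 2000 bp. Among island fragments 0 of 17 members reached 100 reads, against 2.96% of 4284 fragments. For island-and-shore fragments the share was 20.7% of 29 members against 16.2% of 4125 fragments. For shores it was 53.8% of 13 members against 56.6% of 2184 fragments, and outside islands and shores 70.0% of 10 members against 76.4% of 17170. Within a class, the shares of the members lay near those of fragments elsewhere. Over all classes, 29.0% of 69 members of this length reached 100 reads against 54.6% of 27763 fragments. Island fragments made up 17 of these 69 members and 4284 of the 27763 fragments. Of all fragments under 100 bp 2.57% reached 100 reads, and of those from 100 to under 200 bp 23.4%. All 25 members under 100 bp and 9 of the 10 from 100 to under 200 bp had fewer than 100 reads.

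**Figure D1:**
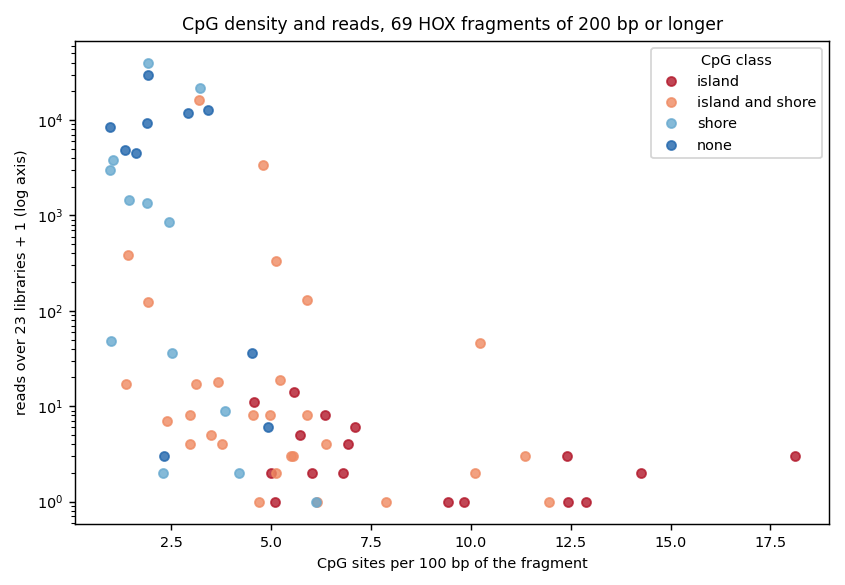
CpG sites per 100 bp (x axis) against reads summed over 23 libraries plus 1 (y axis, log) for the 69 HOX fragments of 200 bp or longer, with colour for the CpG class. Fragments with 100 or more reads lie at 0.96 to 5.91 CpG sites per 100 bp, and the island fragments lie near the floor.

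Members with many reads had a lower median CpG density than those with few, and the ranges overlapped. The 21 members with 100 or more reads had a median of 1.92 CpG sites per 100 bp (range 0.96 to 5.91), and the 49 members of 200 bp or longer with fewer reads had a median of 5.49 (range 1.00 to 18.1). The plot of CpG density against reads shows both groups. Printed below are fragments of each kind on the mm9 plus strand, 5′ to 3′, with every CpG in capitals. Hoxb4-a lies between genes, 4441 bp from Hoxb4, and had 9243 reads, and its first 300 of 420 bases hold 6 CpG sites. Hoxa3-d lies in the promoter window of Hoxa6 and inside introns of Hoxa3, had 4151 reads and holds 7 CpG sites in 193 bases. Hoxd9-c lies in coding exon sequence of Hoxd9, had 0 reads and holds 23 CpG sites in 244 bases.
Hoxb4-a, chr11:96173138-96173437: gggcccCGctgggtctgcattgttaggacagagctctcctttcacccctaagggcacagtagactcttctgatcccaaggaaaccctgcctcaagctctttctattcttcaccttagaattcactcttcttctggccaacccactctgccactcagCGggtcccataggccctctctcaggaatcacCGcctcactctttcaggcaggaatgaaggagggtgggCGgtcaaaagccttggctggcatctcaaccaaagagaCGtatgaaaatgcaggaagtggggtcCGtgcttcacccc
Hoxa3-d, chr6:52161843-52162035: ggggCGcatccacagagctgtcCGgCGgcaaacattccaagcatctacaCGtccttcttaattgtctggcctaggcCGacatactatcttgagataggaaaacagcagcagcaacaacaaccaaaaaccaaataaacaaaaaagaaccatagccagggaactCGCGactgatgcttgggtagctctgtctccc
Hoxd9-c, chr2:74536508-74536751: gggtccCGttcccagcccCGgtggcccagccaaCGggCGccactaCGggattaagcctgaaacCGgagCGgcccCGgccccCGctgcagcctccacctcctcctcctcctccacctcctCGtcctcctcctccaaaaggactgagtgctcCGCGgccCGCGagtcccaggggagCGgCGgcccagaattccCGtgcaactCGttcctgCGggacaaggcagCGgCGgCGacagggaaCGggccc

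**Figure D2:**
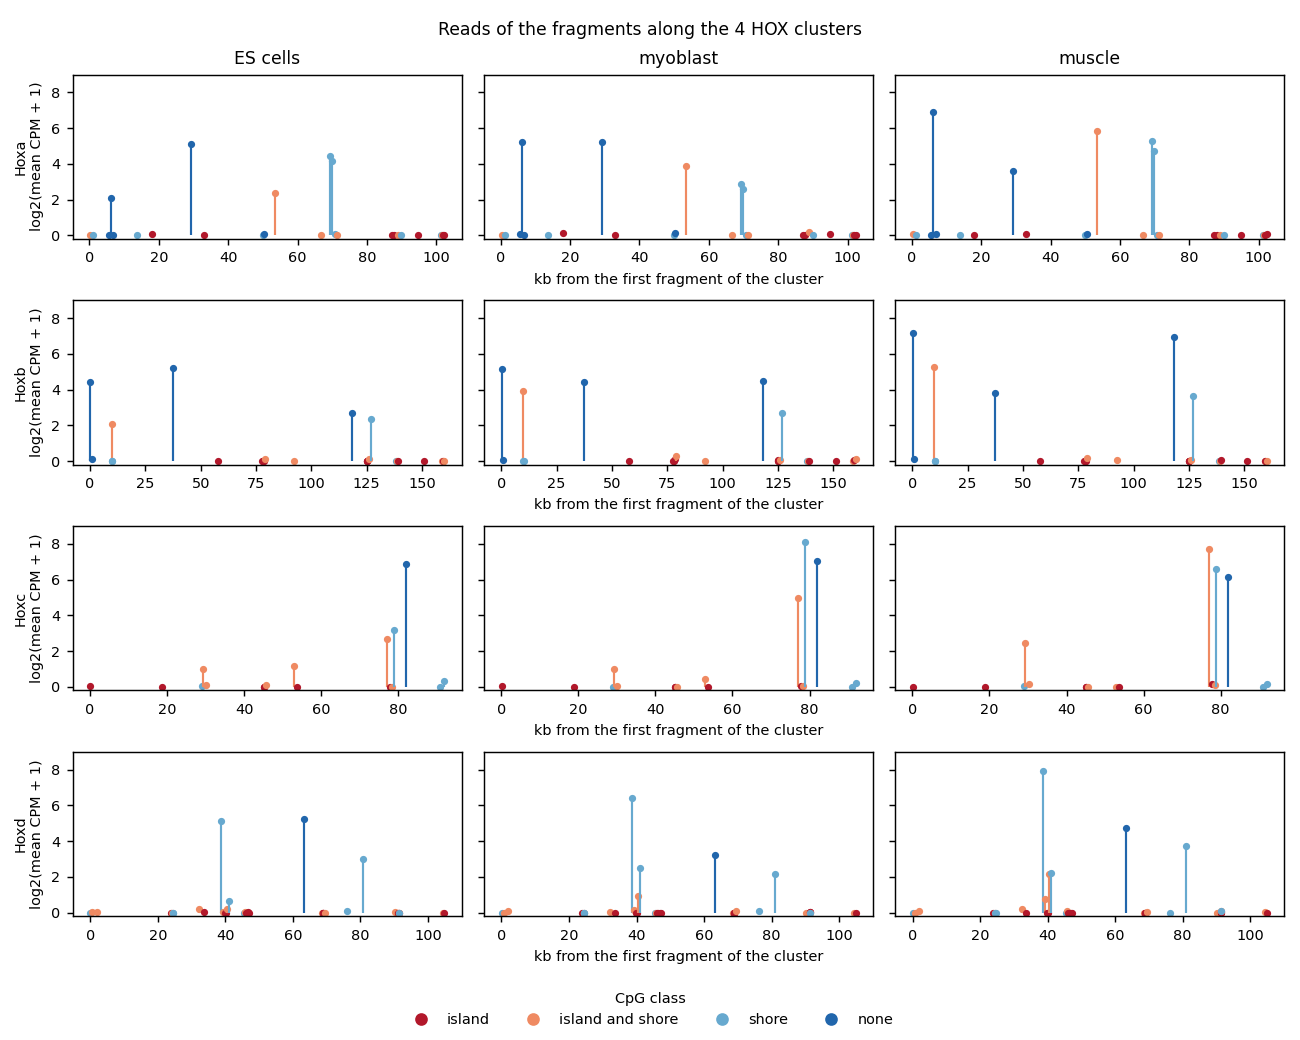
Mean CPM of all 104 fragments as log2(CPM + 1) (y axis) against distance in kb from the first fragment of each cluster (x axis), in ES cells (4 libraries), myoblasts (3) and muscle (3), with colour for the CpG class. A few fragments outside islands carry the reads of each cluster, and they are largely the same positions in all 3 groups at different heights.

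Summed by cluster, only Hoxc stood well above ES cells already in myoblasts, and mostly through 1 fragment, Hoxc5-d. Hoxc5-d had 8.78 ± 5.46 CPM in ES cells and 272.3 ± 97.9 in myoblasts (SD, n = 3 each). Hoxc4-a, the other Hoxc member with many reads in myoblasts, overlapped, with 113.6 ± 27.6 and 131.1 ± 44.3. Hoxc members had 130.9 ± 21.2 CPM in ES cells (SD, n = 3), 435.1 ± 80.0 in myoblasts and 376.3 ± 90.5 in muscle (n = 3 each), and the lowest muscle library (272.5) stood above the highest ES line (155.0). Hoxa members had 73.8 ± 21.9 CPM in ES cells, 98.4 ± 0.867 in myoblasts and 249.9 ± 89.7 in muscle. Hoxb members had 73.5 ± 19.1, 97.1 ± 68.4 and 327.8 ± 80.3 CPM in the same groups, and Hoxd members 76.9 ± 20.5, 102.7 ± 66.2 and 286.2 ± 98.2. The Hoxb and Hoxd sums of myoblasts overlapped with ES cells, the lowest Hoxa sum of myoblasts (97.4) lay just above the highest ES line (96.6), and all 3 stood above ES cells in muscle. These sums rest on the few fragments with many reads and were not tested.

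**Figure D3:**
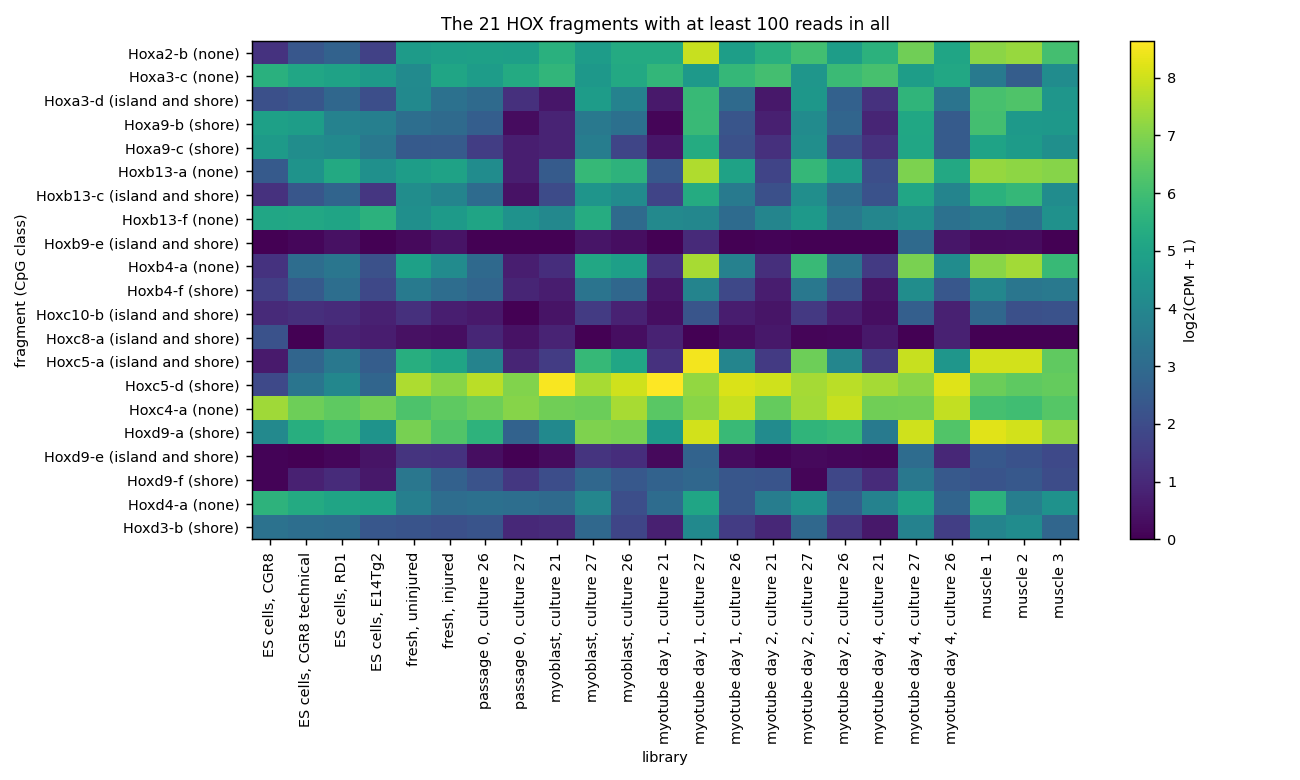
Level of the 21 HOX fragments with 100 or more reads (rows, with their CpG class) in each of the 23 libraries (columns), as log2(CPM + 1). Hoxc5-d and Hoxa2-b are dark in the 4 ES cell libraries and bright in the rest, and most other rows are bright in culture 27 and muscle and dark in culture 21.

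Of the 104 members, 17 to 19 had enough reads to be tested in a comparison, by edgeR's quasi-likelihood test with Benjamini-Hochberg adjustment over every fragment tested. A member that passed this filter only through the group in which it is high was selected for a difference, whether or not it was then called. The counts below thus describe the tested members and not the clusters. Comparisons with ES cells share the ES libraries, and their results are not independent of each other.

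Hoxc5-d and Hoxa2-b were low in ES cells and high in every other group. Hoxc5-d covers the 3′ untranslated end of Hoxc5, a gene of the central zone (chr15:102846100-102846466, 367 bp, shore). Its level was 2.72 CPM in the first and 9.18 in the second CGR8 library, 15.1 in RD1 and 5.97 in E14Tg2. In myoblasts it was 376.5 CPM in culture 21, 258.3 in culture 26 and 182.1 in culture 27. At passage 0 it was 215.7 CPM in culture 26 and 126.0 in culture 27, and the fresh precursors had 191.1 (uninjured) and 135.3 (injured). Day 4 myotubes had 178.4, 293.8 and 138.5 CPM in cultures 21, 26 and 27, and muscle 1 to 3 had 102.0, 89.9 and 95.5. No ES library reached the level of any other library. Hoxc5-d rose by a log2 change of 5.30 ± 0.68 (SE) in myoblasts (adjusted p = 0.000509), 5.13 ± 0.72 in day 4 myotubes (0.00258), 4.69 ± 0.53 at passage 0 (0.000404) and 4.31 ± 0.48 in muscle (8.1e-05), by edgeR. Muscle was lower than myoblasts by a log2 change of -1.05 ± 0.51, which did not pass (adjusted p = 0.138).

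Hoxa2-b covers the start codon of Hoxa2, which has the most anterior expression border of the HOX genes (chr6:52114462-52115046, 585 bp, no CpG class). Its level was 1.43 CPM in the first and 4.08 in the second CGR8 library, 5.55 in RD1 and 2.15 in E14Tg2. Myoblasts had 43.9, 38.3 and 26.4 CPM in cultures 21, 26 and 27, passage 0 had 29.0 and 28.6 in cultures 26 and 27, and fresh precursors had 26 (uninjured) and 28.1 (injured). Day 4 myotubes had 45.5, 32.5 and 109.0 CPM, and muscle 1 to 3 had 138.5, 156.4 and 65.3. The ES libraries again lay below all others. The log2 change against ES cells was 3.71 ± 0.61 in myoblasts (adjusted p = 0.00199), 4.74 ± 0.77 in day 4 myotubes (0.0042), 3.52 ± 0.53 at passage 0 (0.00162) and 6.03 ± 0.61 in muscle (4.86e-05), by edgeR. Both fragments passed the test in all 4 comparisons with ES cells under each alternative that was run.

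Hoxd9-f, over the last coding part of Hoxd9, showed the same order at a lower level. It had 0.068 and 0.714 CPM in the CGR8 libraries, 1.09 in RD1 and 0.478 in E14Tg2, against 3.08, 4.16 and 6.41 in myoblast cultures 21, 26 and 27 and 3.79, 4.24 and 2.99 in muscle 1 to 3. Its log2 change passed edgeR's test in myoblasts (3.04 ± 0.63, adjusted p = 0.00733), day 4 myotubes (3.41 ± 0.84, adjusted p = 0.0316), passage 0 (2.46 ± 0.69, adjusted p = 0.0298) and muscle (3.43 ± 0.60, adjusted p = 0.0011). With 1 and 7 reads in the CGR8 libraries, 11 in RD1 and 4 in E14Tg2, Hoxd9-f entered each test through the other group, where it is high. One day 2 library, of culture 27, had 0.0785 CPM and lay inside the ES range. The calls of Hoxd9-f were less firm than those of Hoxc5-d and Hoxa2-b, and were lost under 8 of 16 alternatives in day 4 myotubes, 9 of 15 at passage 0, 1 of 16 in myoblasts and 0 of 17 in muscle.

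**Figure D4:**
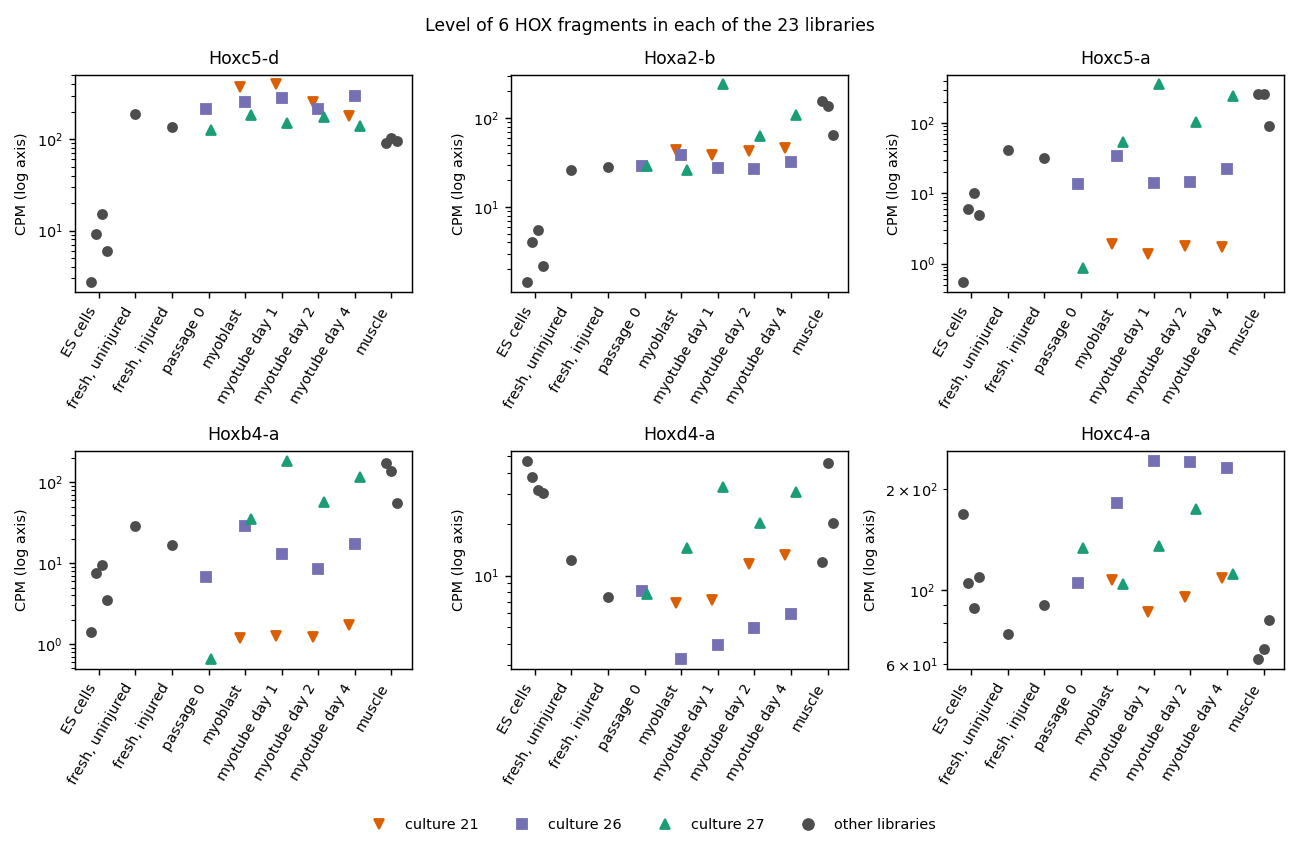
CPM (y axis, log) of 6 HOX fragments in each library (points) by group (x axis), with colour and shape for the myoblast culture. Hoxc5-d and Hoxa2-b separate ES cells from all other libraries, Hoxc5-a and Hoxb4-a follow the culture, Hoxd4-a is lower in most cultured libraries than in ES cells, and Hoxc4-a overlaps between ES cells and myoblasts.

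In the comparison of muscle with ES cells, 15 of 19 tested members were higher and 0 were lower, where 24.4% of all 22980 tested fragments were higher and 34.6% lower. All 15 are listed by cluster here: Hoxa2-b, Hoxa3-d, Hoxa9-b and Hoxa9-c in Hoxa, Hoxb4-a, Hoxb4-f, Hoxb13-a and Hoxb13-c in Hoxb, Hoxc5-a, Hoxc5-d and Hoxc10-b in Hoxc, and Hoxd3-b, Hoxd9-a, Hoxd9-e and Hoxd9-f in Hoxd. Each cluster had 1 member that did not pass (Hoxa3-c, Hoxb13-f, Hoxc4-a and Hoxd4-a). The median log2 change of the tested members was 3.43, and that of all fragments tested was -0.34. Anterior genes (paralogs 1 to 4) had 5 of 8 tested members higher, central genes (5 to 8) 2 of 2, and posterior genes (9 to 13) 8 of 9. The 2 central members are both fragments of Hoxc5. Hoxa3-d, counted as anterior by its name, also lies in the promoter window of Hoxa6, a central gene.

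The CpG class of the members has to be read beside that count. Among all fragments under 2000 bp, 85.7% of tested island-and-shore fragments were higher in muscle, 59.6% of shore fragments and 29.0% outside islands and shores, with median log2 changes of 4.17, 1.92 and 0.18. The members gave 5 of 5, 7 of 7 and 3 of 7 in these classes, with medians of 4.56, 2.24 and 0.37. The order of the classes by median was the same in the members and genome-wide. No island member could be tested, while 91.4% of the 139 tested island fragments elsewhere were higher.

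The log2 changes were largest in Hoxc5-a, Hoxa2-b, Hoxd9-e and Hoxb4-a among the 15. Hoxc5-a begins at the first base of Hoxc5 and covers its start codon (chr15:102844246-102844714, 469 bp). It had 0.544 and 6.02 CPM in the CGR8 libraries, 10.0 in RD1 and 4.90 in E14Tg2, against 262.6, 262.1 and 92.0 in muscle 1 to 3, a log2 change of 6.07 ± 0.68 (edgeR, adjusted p = 8.62e-05). Hoxd9-e, in the coding part of Hoxd9, had few reads throughout, with 0.068, 0, 0.0992 and 0.358 CPM in the ES libraries in the same order and 4.16, 3.57 and 2.79 in muscle 1 to 3, a log2 change of 5.44. It entered this test through muscle, where it is high. Hoxb4-a, which lies between genes, had 1.43, 7.54, 9.42 and 3.46 CPM in the ES libraries, against 137.1, 171.2 and 56.0 in muscle, a log2 change of 5.35 ± 0.65 (adjusted p = 0.000135). Hoxb13-a, in the promoter window of the most posterior Hoxb gene, rose from 22.5 ± 13.5 CPM in ES cells to 143.5 ± 10.9 in muscle (n = 3 each), a log2 change of 3.56 ± 0.47 (adjusted p = 0.000211). Hoxd9-a, in the promoter window of Hoxd9, went from 34.1 ± 18.8 to 239.4 ± 81.9 CPM (3.69 ± 0.53, adjusted p = 0.000346). In each of these fragments all 3 muscle libraries lay above all ES libraries. Muscle 3, the C57BL/6J library, was the lowest of the 3 muscle libraries at each.

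Levels in the 2 CGR8 libraries, made from the same line, differed more than 4-fold at Hoxc5-a (ratio of the second to the first 11.1), Hoxd9-f (10.5), Hoxb4-a (5.28) and Hoxb13-a (4.63), and the ratio was 1.19 at Hoxa3-d. Genome-wide the second library was also higher for island-and-shore fragments, with a median log2 ratio of 2.50 over 342 fragments, against 0.21 over 12840 fragments outside islands and shores. The fitted log2 changes moved little with the CGR8 library used. With the second or the first library in place of the sum they were 5.96 and 6.29 at Hoxc5-a, 5.23 and 5.61 at Hoxb4-a, and 3.50 and 3.71 at Hoxb13-a. With a single CGR8 library in place of the sum, 12 (first) or 15 (second) members were higher in muscle. With muscle 3 as the only muscle library 11 were, in a fit whose spread comes from the ES lines alone, with the single muscle library assumed to vary as they do.

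Weaker changes were seen over Hoxa9, Hoxd3 and Hoxb4. Hoxa9-b and Hoxa9-c, neighbours in the upstream part of Hoxa9, rose by 1.85 ± 0.58 and 1.44 ± 0.47 on the log2 scale (adjusted p = 0.0201 and 0.0230), Hoxd3-b by 1.77 ± 0.56 (0.0208) and Hoxb4-f by 2.24 ± 0.52 (0.00453), by edgeR. In CPM, ES and muscle libraries overlapped at Hoxa9-b (12.3 to 29.4 against 23.6 to 65.1) and Hoxa9-c (9.91 to 24.9 against 18.8 to 31.0). Hoxd3-b also overlapped (4.06 to 8.51 against 6.17 to 17.5), while Hoxb4-f did not (2.04 to 7.64 against 9.59 to 14.9). These 4 calls were lost under some alternatives, and with library totals as the scaling all 4 were. Under that scaling 11 members were higher and 2 lower (Hoxa3-c and Hoxb13-f), and the median of all fragments was -1.14 in place of -0.34. Hoxb13-a was not called when all groups shared a single fit, with an adjusted p of 0.0586.

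**Figure D5:**
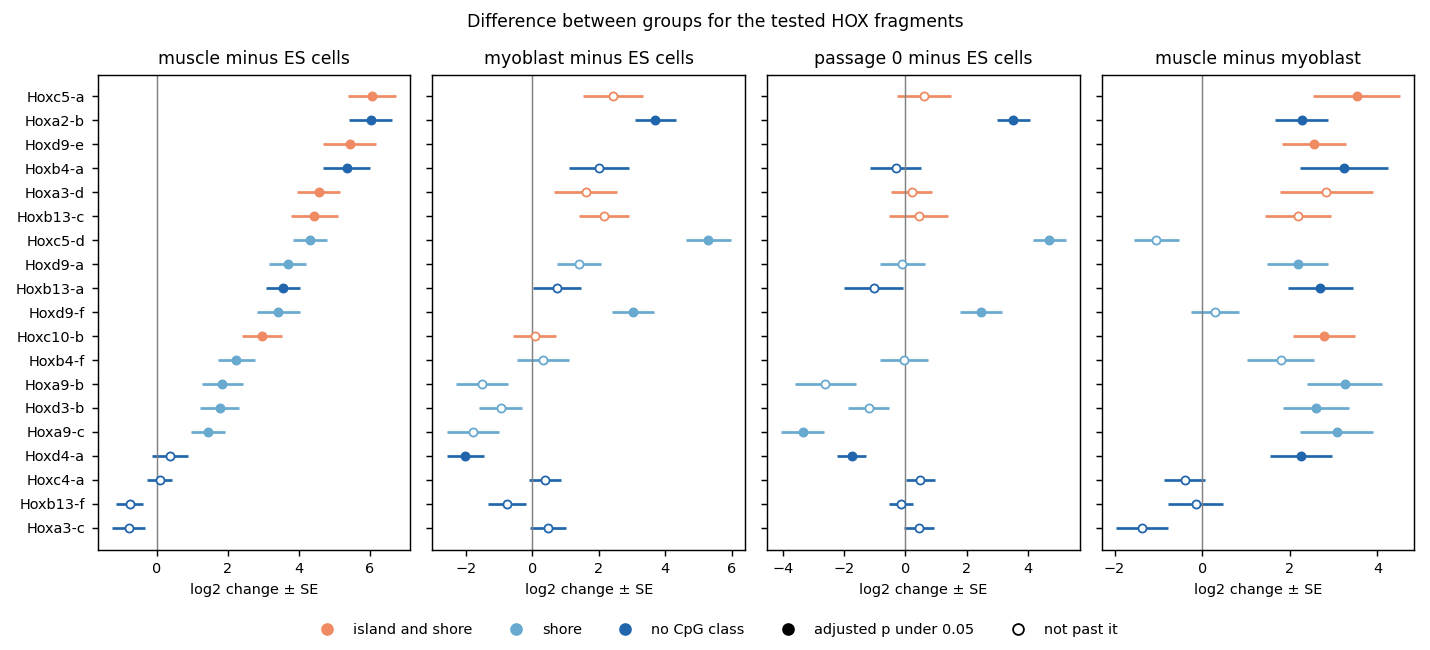
Log2 change with its standard error (x axis) for each tested HOX fragment (y axis) in 4 comparisons, with colour for the CpG class and filled points for an adjusted p under 0.05. Fragments are ordered by the muscle against ES cell change, and Hoxc5-d, Hoxa2-b and Hoxd9-f are filled to the right in all 3 comparisons with ES cells.

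Myoblasts differed from ES cells at fewer members. Of 18 tested members 3 were higher (Hoxc5-d, Hoxa2-b and Hoxd9-f) and 1 was lower (Hoxd4-a), where 8.22% of all 25152 tested fragments were higher and 11.7% lower. Hoxd4-a lies in the first untranslated exon of Hoxd4, an anterior gene, within the longer gene body of Hoxd3. It had 46.7, 37.5, 31.8 and 30.2 CPM in the 4 ES libraries and 6.88, 3.25 and 14.5 in myoblast cultures 21, 26 and 27. It was lower by a log2 change of -2.01 ± 0.57 (edgeR, adjusted p = 0.0347). At passage 0 it had 8.14 and 7.75 CPM, a log2 change of -1.75 ± 0.48 (adjusted p = 0.0272). The 2 groups did not overlap with ES cells, but the myoblast call was lost under 8 of 16 alternatives and the passage 0 call under 8 of 15. Without culture 21, 9 members were higher in myoblasts than in ES cells, with Hoxa3-d, Hoxb13-c, Hoxb4-a, Hoxc5-a, Hoxd9-a and Hoxd9-e added. The fragments higher over the genome went in the same way from 2068 of 25152 to 3922 of 28173.

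Day 4 myotubes gave 3 of 18 tested members higher than ES cells and 0 lower, where 5.42% of all fragments tested were higher and 5.93% lower. The 3 are Hoxc5-d, Hoxa2-b and Hoxd9-f, and at an unadjusted p under 0.05 there were 7, beside 6004 of all 25497 fragments tested. Without culture 21 the count was 9, and with DESeq2's test it was 8. The fragments higher over the genome went from 1382 to 4082 of 28274 without culture 21 and to 3417 with DESeq2's test.

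Passage 0 gave 3 of 17 tested members higher (the same 3) and 2 lower (Hoxa9-c and Hoxd4-a), where 10.2% of all fragments tested were higher and 17.2% lower. Hoxa9-c had 24.9, 17.7, 16.1 and 9.91 CPM in the ES libraries and 1.94 and 0.655 in passage 0 cultures 26 and 27. Its log2 change was -3.35 ± 0.70 (edgeR, adjusted p = 0.00877). Leaving out a passage 0 library leaves a single one, which is then assumed to vary as the ES lines do. Without culture 27 neither lower member was called, and Hoxd9-f was not called higher. Without culture 26, 3 members were lower (Hoxa9-c, with Hoxa9-b and Hoxb13-a added), and Hoxd4-a and Hoxd9-f were not called.

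Muscle against myoblasts gave 11 of 19 tested members higher and 0 lower, where 13.7% of all 20274 fragments tested were higher and 17.4% lower. The 11 were Hoxa2-b, Hoxa9-b, Hoxa9-c, Hoxb4-a, Hoxb13-a, Hoxc5-a, Hoxc10-b, Hoxd3-b, Hoxd4-a, Hoxd9-a and Hoxd9-e. Their log2 changes ran from 2.18 ± 0.70 (Hoxd9-a) to 3.53 ± 0.99 (Hoxc5-a), with adjusted p between 0.0201 and 0.0415 by edgeR. By class, 3 of 5 island-and-shore members were higher, 4 of 7 in shores and 4 of 7 elsewhere, against 34.4%, 31.4% and 15.4% of the tested fragments of these classes genome-wide. Muscle 1 and muscle 2 differ in strain from the myoblasts, while muscle 3 shares their strain. The part of strain in these calls was not tested. The count fell to 0 without muscle 1, without muscle 2 or without culture 26, and to 3 without culture 27. It rose to 13 without muscle 3 and to 12 without culture 21, with 3135 of 22914 and 3491 of 22441 fragments higher. Over all fragments, no call in either direction was left without muscle 1 (of 23111 tested) or without muscle 2 (of 23481), while 1069 of 21872 were higher without culture 26 and 1557 of 21303 without culture 27. The log2 changes of the 11 stayed positive under all alternatives, including the fit with muscle 3 as the only muscle library. Their lowest values ran from 1.22 at Hoxa2-b and 1.39 at Hoxd9-a to 2.34 at Hoxa9-c and 2.50 at Hoxa9-b, with 2.27 at Hoxc5-a. With library totals as the scaling 1 member was higher (Hoxa2-b) and 1 lower (Hoxc5-d).

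The cultures differed from each other at the members that differ between muscle and myoblasts. Hoxc5-a had 1.90 CPM in culture 21, 33.8 in culture 26 and 54.5 in culture 27 as myoblasts, and 1.74, 22.3 and 242.3 in the same order at day 4. Hoxb4-a had 1.18, 28.6 and 35.1 CPM as myoblasts and 1.74, 17.3 and 117.6 at day 4. Hoxd9-a had 16.3, 116.4 and 123.0 CPM as myoblasts and 10.4, 78.3 and 257.8 at day 4. At day 1 the same fragments in culture 27 reached 354.8, 183.1 and 264.6 CPM, which is within or above the range of muscle. Of the 19 members with a mean of at least 1 CPM over these 12 libraries, 13 were higher in culture 27 than in culture 21 at all 4 stages, and 11 had the order 27, 26, 21 at all 4. Among all fragments under 2000 bp at that level the shares were 30.7% and 12%. Among island-and-shore fragments 72.3% were higher in culture 27 than 21 at all 4 stages and 34.0% had the full order. Among shore fragments the shares were 54.3% and 28.6%, and outside islands and shores 26.5% and 9.52%. These orders were noticed in the data and were not tested.

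That difference was also seen in the island-and-shore fragments of the whole genome. Fragments outside islands and shores together had the opposite order. They had 911358, 886990 and 872767 CPM in cultures 21, 26 and 27 as myoblasts and 926909, 889740 and 841768 at day 4. All island-and-shore fragments together had 1901, 9547 and 10861 CPM in cultures 21, 26 and 27 as myoblasts and 1294, 8665 and 34023 at day 4. The island-and-shore members had 6.70, 67.3 and 107.5 CPM and 7.42, 49.4 and 346.4 in the same libraries. Muscle 1 to 3 had 28375, 38516 and 13127 CPM for the class and 388.5, 399.8 and 138.4 for its members. The part of this genome-wide difference in the member results was not tested.

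Hoxc5-d had the opposite order in myoblasts, with culture 21 the highest, and Hoxa2-b had culture 21 above 26 and 27. Hoxc5-a and Hoxc5-d, at the start and the end of the same gene, thus had opposite orders of the cultures as myoblasts. A further set of members without a CpG class did not pass. Hoxc4-a, in an untranslated exon of Hoxc4, had 113.6 ± 27.6 CPM in ES cells, 131.1 ± 44.3 in myoblasts and 70.1 ± 9.95 in muscle, and Hoxa3-c, in an intron of Hoxa3, had 31.8 ± 7.36, 36.9 ± 13.8 and 11.1 ± 6.36. Hoxb13-f, an intergenic fragment with a SINE repeat, had 37.4 ± 7.60, 20.6 ± 16.9 and 12.8 ± 6.03 CPM (SD, n = 3 each). None of the 3 passed the test in any of the 7 comparisons, with a lowest adjusted p of 0.103.

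Differentiation and passage gave no member past the threshold in the fits that did not pair the cultures. Day 4 myotubes against myoblasts had 0 of 18 tested members called by edgeR, 0 at an unadjusted p under 0.05 and 0 by DESeq2, where 0% of 22438 fragments were called. With the culture as a block, since each culture was followed through differentiation, 39 fragments were called over the genome and no member. Of the 18 members 16 had a positive log2 change, but without culture 27 at day 4 13 of the 18 changed sign. Myoblasts against passage 0 also had 0 of 18 called, with 0 at an unadjusted p under 0.05 and 0 by DESeq2, where 0% of 23419 fragments were called. With the culture number as a block 5 members were higher in myoblasts (Hoxb13-a, Hoxb13-c, Hoxb4-a, Hoxc5-a and Hoxd9-a), beside 821 fragments higher and 175 lower over the genome. In culture 27, Hoxc5-a went from 0.874 CPM at passage 0 to 54.5 in myoblasts, Hoxb4-a from 0.655 to 35.1 and Hoxb13-a from 0.655 to 54.2. In culture 26 the same fragments went from 13.7 to 33.8, 6.72 to 28.6 and 17.3 to 46.6 CPM. All island-and-shore fragments together had 1392 CPM at passage 0 and 10861 in myoblasts in culture 27, and 4370 and 9547 in culture 26. Whether the 2 passages of a number come from the same animal is not given by the labels.

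The fresh precursors had 1 library each and hence no test. They lay between the means of ES cells and muscle at some of the called members and outside them at others. Hoxc5-a had 41.5 CPM in the uninjured and 31.9 in the injured library, Hoxb4-a 28.9 and 16.9, Hoxd9-a 114.8 and 77.9, and Hoxa3-d 16.2 and 8.39. Hoxb13-a had 26.8 and 30.7, inside the ES range of 4.49 to 37.4. All island-and-shore members together had 80.0 and 57.3 CPM, against 16.5 ± 7.68 in ES cells and 308.9 ± 147.8 in muscle (n = 3 each).

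Genes that work with HOX proteins or regulate the clusters were taken from 3 lists, again over all fragments under 2000 bp in the gene or 2000 bp upstream. The cofactors MEIS, PBX and PKNOX, which bind DNA with HOX proteins, had 5 of 11 tested fragments higher in muscle than in ES cells and 0 lower, with a median log2 change of 0.75, where 24.4% of all fragments tested were higher. Against myoblasts 1 of 11 was higher in muscle, where 13.7% of all fragments were. Of the cofactors, Meis2 held the largest change. Its fragment at chr2:115771779-115772270 had 4 and 12 reads in the CGR8 libraries and 0 reads in RD1 and E14Tg2, against 196 to 1575 in the 12 libraries of myoblasts and myotubes and 302 to 915 in muscle. Its log2 change was 8.28 ± 1.00 in muscle (edgeR, adjusted p = 0.000128), 7.53 ± 1.15 in myoblasts (0.00133), 8.16 ± 1.51 in day 4 myotubes (0.00762) and 9.10 ± 1.09 at passage 0 (0.000517). The fragment entered each test through the group in which it is high. A sequence difference between the strains at its sites was not tested. At passage 0, 1 of 10 cofactor fragments was higher and 1 lower, where 10.2% and 17.2% of all were. The lower one was another Meis2 fragment, chr2:115694761-115695227 (-1.86 ± 0.46, edgeR, adjusted p = 0.0178), which was higher in muscle than in ES cells (1.63 ± 0.41, 0.00733). A further Meis2 fragment, chr2:115706542-115707711, had 37.9 to 55.8 CPM in ES libraries and 12.2 to 17.5 in muscle, and was not called. The ParaHox and Cdx genes, relatives and activators of HOX genes, had 4 of 4 tested fragments higher in muscle than in ES cells (median 3.19) and 2 of 4 higher than in myoblasts. Of these 4 fragments 3 are in shores, a class in which 59.6% of all tested fragments were higher in muscle than in ES cells. Polycomb and Trithorax genes, which hold HOX clusters off or on, had 2 of 11 higher and 1 lower in muscle against ES cells (median 0.06), 0 higher and 2 lower of 11 in myoblasts, and 1 higher and 2 lower of 10 at passage 0. The 2 of 11 higher in muscle lie below the share of all fragments. Of all fragments tested, 34.6% were lower in muscle, 11.7% in myoblasts and 17.2% at passage 0, where 10.2% were higher. The 2 of 11 and 2 of 10 lower thus lie near the shares of all fragments. The 2 fragments lower in both myoblasts and passage 0 lie in Phc2 and Jarid2, both of Polycomb complexes. Their log2 changes in myoblasts were -3.02 ± 0.81 (edgeR, adjusted p = 0.0268) and -2.91 ± 0.79 (adjusted p = 0.0284). Both were higher in muscle than in myoblasts (4.01 ± 0.89 and 3.35 ± 0.90, adjusted p = 0.0147 and 0.0240). They were the 2 of 10 tested fragments of this list called higher there, where 13.7% of all fragments were.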

How the data were processed

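Read counts per fragment and library, as deposited, are whole numbers and were used raw. Per the labels' protocols DNA was digested with SmaI and XmaI, amplified, sequenced on an Illumina GA2 and mapped to mm9; Bowtie 0.11.3 and DESeq (no version) appear in the submitters' processing notes, and read filters are not given in the sources used here. CpG classes are the authors'. CCCGGG was found at both ends of all 104 members in the mm9 sequence, and genes are from GENCODE M1, with a promoter window of 2000 bp upstream to 500 bp downstream.

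The test was the quasi-likelihood F test of edgeR 4.0.16 after TMM scaling and filterByExpr (at least 10 counts), with Benjamini-Hochberg adjustment over all fragments and a threshold of 0.05, on the 2 groups of each of 7 comparisons. CPM divides by the library total. The members, lists and comparisons were chosen with earlier results of these data known. Named are all members called in a comparison and the 3 with the highest mean CPM per cluster. Nothing says that libraries of a group come from separate animals, so p-values measure the spread between these libraries. On simulated counts for muscle against ES cells (22980 fragments, 200 changed), 97.5% of 16-fold and 0.5% of 4-fold changes were recovered. Libraries of the same culture number deviated together in day 4 myotubes and myoblasts (r = 0.85, 0.68 and 0.64), since the labels give each culture at every stage. For myoblasts and passage 0, r was 0.44 (culture 26) and -0.02 (culture 27). Alternatives were DESeq2 1.42.0 size factors and test, library totals, no filter, all groups in a single fit, short fragments alone, the ES replicates apart, a replicate block and leaving out each library. The first CGR8 library alone and muscle 3 alone were added after seeing the data. Reads carry no molecular identifiers. R 4.3.3, Python, numpy, pandas and matplotlib were used.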

Additional observations from a re-analysis of the deposited data

How the results depend on the processing

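Counts of HOX members called are given here under each alternative that moved them by more than 1.5 times. For muscle against ES cells, members called lower went from 0 to 2 with library totals and to 1 with no filter, DESeq2's test, all groups in one fit and short fragments alone. Members higher stayed between 11 and 16, and between 12 and 15 when a library was left out. For myoblasts against ES cells, members higher were 6 with no filter and 5 with DESeq2's test, and 2 to 9 when a library was left out. Members lower fell from 1 to 0 with no filter, all groups in one fit, the second CGR8 library alone or the first alone, and were 0 to 2 when a library was left out. For day 4 myotubes, members higher were 11 with no filter, 8 with DESeq2's test and 2 to 9 when a library was left out. For passage 0, members lower were 1 with DESeq2 size factors, 0 with all groups in one fit, 1 with the first CGR8 library and 0 to 3 when a library was left out. For muscle against myoblasts, members higher fell from 11 to 1 with library totals, 0 with all groups in one fit, 0 with the replicate block, 0 with muscle 3 alone and 0 to 13 when a library was left out, and members lower went from 0 to 1 with library totals. The replicate block gave 5 members higher in myoblasts than at passage 0. Apart from this and muscle against myoblasts, the block moved no count of member calls by over 1.5 times. In comparisons with ES cells and of muscle with myoblasts the libraries share only a number. The cause of these shifts was not tested. No named call changed direction. Fragments with few reads could not be tested, and 4-fold changes are seldom found at this number of libraries.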
